A study of Bos taurus with 2 samples.

Results

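The BMP and TGF-beta genes examined here were 10 genes fixed by name, namely the ligand genes BMP2 and BMP4, the receptor gene BMPR1A, the SMAD genes SMAD1, SMAD2, SMAD4 and SMAD5, and the target genes ID1, ID2 and ID3, out of 21209 gene symbols. RNA-Seq had been carried out on 1 pool of bovine in vitro fertilized embryos injected as zygotes with siRNA against CDKN1C, a cell-cycle inhibitor, and on 1 pool of sham embryos, which were punctured with the needle but received no siRNA. Embryos of both groups were made in vitro from oocytes of cow ovaries, and the RNA of each pool was amplified before sequencing. Neither the stage nor the number of embryos in the sequenced pools is given separately from other experiments in the sources used here. The sham pool controls for puncture but not for the presence of an siRNA. The question was whether the genes of this pathway differed between siRNA-injected and sham embryos. With a single library in each group there is no replicate error for any value and no p-value is given.

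BMP and TGF-beta ligands are secreted signals that bind paired type I and type II receptors on the cell surface. Receptors of the BMP branch phosphorylate SMAD1, SMAD5 and SMAD9, those of the TGF-beta, activin and NODAL branch phosphorylate SMAD2 and SMAD3, and either set enters the nucleus with the shared partner SMAD4. The ID genes are classical BMP targets, and their proteins hold basic helix-loop-helix (bHLH) transcription factors inactive because they dimerize without binding DNA.

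Values are FPKM, fragments per kilobase of transcript with an upper-quartile normalization between libraries. FPKM divides by transcript length. The RNA was amplified, and how well levels compare between genes of different length was not tested. A difference is log2 of injected over sham after 1 FPKM was added to both, which makes differences of low genes look smaller, and fold values of single genes are FPKM ratios without this addition. The target of the siRNA, CDKN1C, was 14.6 FPKM in injected and 49.5 FPKM in sham embryos. Divided by GAPDH, which was itself 3.24-fold lower, CDKN1C in injected embryos was 95.2% of its sham level. This percentage depends on the reference. Of the other reference genes that the study tried, RPLP0 was lower too, at 445 against 1390 FPKM. ACTB was higher, at 2484 against 1879 FPKM, so that CDKN1C stays lower when divided by it. By qRT-PCR normalized to GAPDH, the study reported a knockdown of CDKN1C. Over 7984 genes that averaged 1 FPKM or more, the median log2 difference was -0.17, and it was 0.16 once both pools were given the same total FPKM, so small differences depend on how the pools are scaled. Embryo markers were present in both pools. Of 10 trophectoderm markers 8 averaged 1 FPKM or more, and the sum over all found was 7573 in the injected and 17557 in the sham pool. KRT8 and KRT18 made up most of both sums, and without them the 7 others summed to 573 against 553 FPKM. Of these, 4 were higher, among them IFNT2 at 135 against 31.1 FPKM. The 3 lower were GATA2, GATA3 and CDX2, the last at 1.19 against 3.76 FPKM. Without IFNT2 the sum of the rest would be lower in the injected pool. Of 7 epiblast markers 6 passed this level, at a sum of 127 against 242 FPKM. A single gene, POU5F1, at 56.3 against 170 FPKM, carried nearly all of this gap. Of 7 hypoblast markers 4 passed, at 20.3 against 23.3 FPKM, with SOX17, a defining marker of the hypoblast, listed at 0 in both.

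Of the 10 members, 7 were higher and 3 lower after injection. Over all 21209 symbols, those at 0 in both pools included, 32.3% were higher. A symbol at 0 in both cannot be higher, whereas every member was above 0 in both pools. This share is therefore too low a background for the members. Of the members, 6 averaged 1 FPKM or more. Among those 6, 3 were higher and 3 lower, beside 41.7% of all 7984 genes that were higher. ID3 was at least 2-fold higher after 1 FPKM was added, against 4.92% of all genes, and no member was at least 2-fold lower, against 15.7% of all genes. The median log2 difference of the 6 was 0.12, beside -0.17 over all genes. The members covered a wide range of levels. In the sham pool the order was ID1, SMAD1, ID3, ID2, SMAD2, SMAD4, BMP4, BMPR1A, SMAD5 and BMP2, and in the injected pool ID1, SMAD1, ID3, SMAD2, ID2, SMAD4, SMAD5, BMP4, BMP2 and BMPR1A. Neighbours in this order cannot be separated by an error, since each value is a single library.

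**Figure D1:**
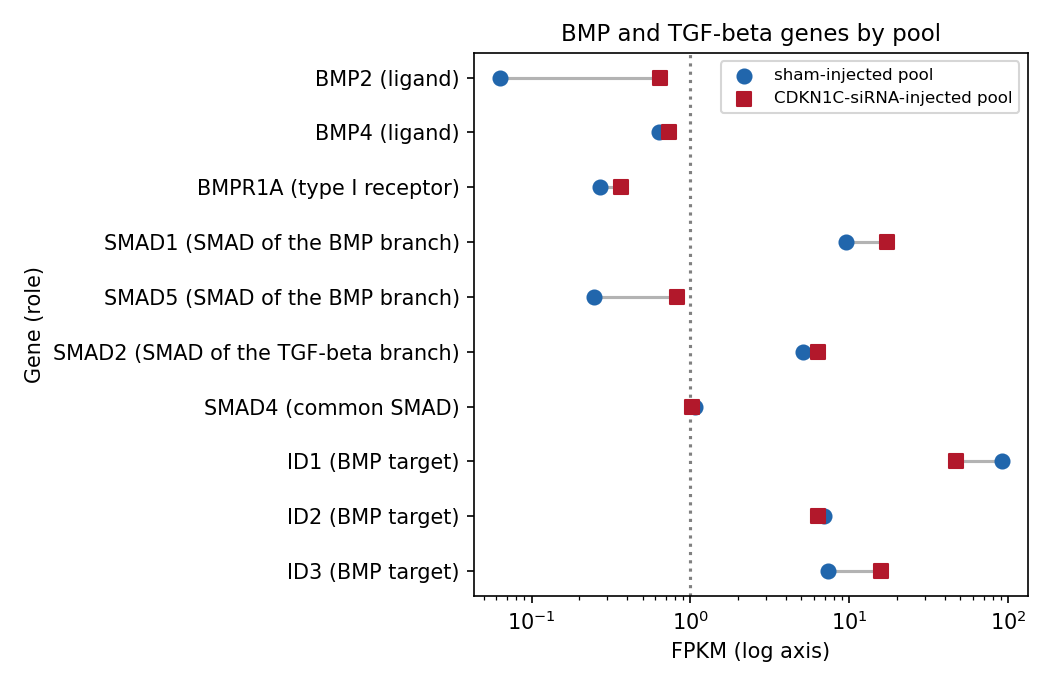
FPKM (horizontal, log axis) of the 10 members, by role from ligands to targets, as blue circles for sham and red squares for injected embryos, 1 library each, with a dotted line at 1 FPKM. ID1 is the highest in both pools and lies to the left after injection, whereas ID3, SMAD1, SMAD5 and BMP2 lie to the right.

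Among the ID genes, the targets of the pathway, ID1 and ID3 went in opposite directions, except with GAPDH as the reference, where both were higher. ID1, at 61846122 to 61847282 of chromosome 13 in bosTau7, the build used for all positions here, was 47.3 FPKM in injected and 91.9 FPKM in sham embryos, 1.94-fold lower after injection. ID1 was the highest member in both pools and stood above 94.5% of all symbols in the injected and 95.8% in the sham pool. Its log2 difference of -0.94 fell just short of 2-fold, and 17.5% of the 7984 genes were as low or lower. With bulk RNA, fewer cells that express a gene and less of its RNA in each cell cannot be told apart.

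ID3, on chromosome 2 from 134965184 to 134966784, was 15.8 FPKM in injected and 7.30 FPKM in sham embryos, 2.17-fold higher after injection. Its log2 difference of 1.02 was just above 2-fold, and 4.65% of the 7984 genes were as high or higher. ID2, on chromosome 11 from 91273319 to 91275624, was 6.33 against 6.93 FPKM. This small difference of -0.11 changed sign when the median of all genes was set to 0, when both pools had the same total FPKM, after a fit on locus length and with GAPDH as the reference.

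The makeup of the ID genes can be read within each pool, where the scaling between pools cancels. ID1 made up 86.6% of the summed ID1, ID2 and ID3 FPKM in the sham pool and 68.1% in the injected pool. The share of ID3 was 6.87% in the sham and 22.8% in the injected pool, while that of ID2 was 6.53% and 9.12%. ID1 was therefore 12.6 times ID3 in the sham pool and 2.99 times ID3 in the injected pool, a 4.22-fold difference between the ratios. Both genes are short, with loci of 1160 and 1600 bases. The summed FPKM of the 3 genes was 69.4 in the injected and 106 in the sham pool.

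Among the SMAD genes, SMAD1 was the highest and the one that differed most of those above 1 FPKM. SMAD1, which carries BMP signals, lies on chromosome 17 from 13678684 to 13725730 and was 17.3 FPKM in injected and 9.47 FPKM in sham embryos. It was 1.83-fold higher after injection, with a log2 difference of 0.81, and 8.28% of the 7984 genes were as high or higher. With the same total FPKM in both pools its log2 difference was 1.19, past 2-fold. A microRNA row with the same interval, MIR2284G, was listed at 0 in both pools.

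SMAD5, the close relative of SMAD1 in the BMP branch, was low in both pools. It was 0.818 FPKM in injected and 0.246 FPKM in sham embryos, on chromosome 7 from 46740839 to 46803137, a 3.33-fold ratio at levels under 1 FPKM. SMAD9, the third of that branch, was listed at 0 in injected embryos and was 0.0246 FPKM in sham embryos. SMAD1 was 38.5 times SMAD5 in the sham pool and 21.2 times SMAD5 in the injected pool, so most SMAD FPKM of the BMP branch came from 1 gene in both.

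SMAD2, of the TGF-beta and activin branch, was 6.34 FPKM in injected and 5.08 FPKM in sham embryos, on chromosome 24 from 49049510 to 49099521. Its relative SMAD3 was 0.311 against 0.341 FPKM. SMAD4, the shared partner of both branches, was 1.02 against 1.06 FPKM, on chromosome 24 from 51843393 to 51875183, and this difference of -0.03 changed sign when the median of all genes was set to 0, at the same total FPKM and with GAPDH as the reference. SMAD4 was lower than SMAD1 and SMAD2 in both pools. SMAD1 was 8.92 times SMAD4 in the sham pool and 17.0 times SMAD4 in the injected pool, and SMAD2 was 4.79 and 6.21 times SMAD4.

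The 2 inhibitory SMADs, which block the receptors and are themselves induced by the pathway, were both below 1 FPKM. SMAD6 was 0.513 FPKM in injected and 0.960 FPKM in sham embryos, and SMAD7 was listed at 0 in injected and was 0.543 FPKM in sham embryos. Summed over the 8 SMAD genes, SMAD1 made up 53.4% of FPKM in the sham pool and 65.8% in the injected pool, and SMAD2 28.7% and 24.1%. The ratio of BMP-branch SMADs (SMAD1, SMAD5 and SMAD9) to those of the TGF-beta branch (SMAD2 and SMAD3) was 1.80 in the sham pool and 2.73 in the injected pool.

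**Figure D2:**
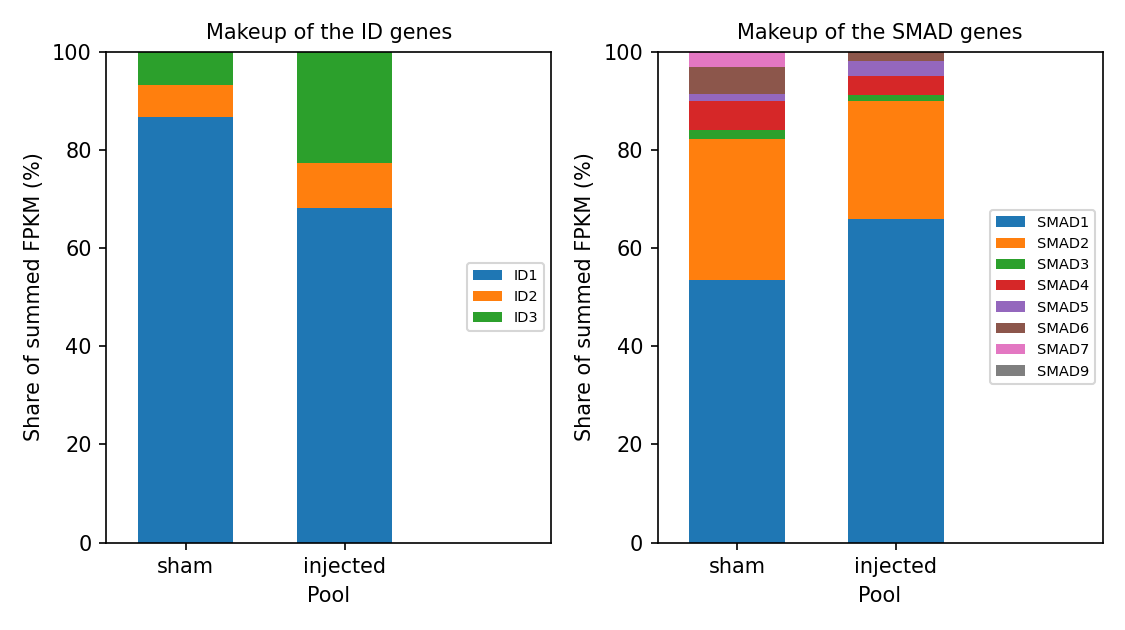
Share of summed FPKM (vertical, percent) that each ID gene (left) and each SMAD gene (right) takes in the sham and the injected pool, 1 library each. ID3 takes 6.87% of the ID genes in the sham and 22.8% in the injected pool, and SMAD1 takes 53.4% and 65.8% of the SMAD genes.

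The ligand and receptor genes among the members were all below 1 FPKM. BMP2, on chromosome 13 from 49207397 to 49218698, was 0.648 FPKM in injected and 0.0629 FPKM in sham embryos, a 10.3-fold ratio. The study names BMP2 among its changed genes from these same pools, so the direction is not independent evidence. BMP4, on chromosome 10 from 67869566 to 67873300, was 0.733 against 0.631 FPKM, and BMPR1A, a type I receptor of BMP2 and BMP4, was 0.366 against 0.269 FPKM, on chromosome 28 from 41291189 to 41349272. BMP4 was 10.04 times BMP2 in the sham pool and 1.13 times BMP2 in the injected pool.

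All 4 members below 1 FPKM (BMP2, BMP4, BMPR1A and SMAD5) were higher in the injected pool, and 2 of them, BMP2 and SMAD5, by at least 2-fold as a ratio of FPKM. The share of all genes at this level that were higher by any amount is not given here, so the count of 4 has no background. Large ratios were common at this level. Of the 3564 genes with a mean of 0.1 to 1 FPKM and a value above 0 in both pools, 22.5% were at least 2-fold higher in the injected pool and 1.63% at least 10-fold higher, as BMP2 was. After 1 FPKM was added, the log2 differences of BMP2 and SMAD5 were 0.63 and 0.55. The number of reads behind these values is unknown.

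Most of the fibroblast markers with a value were higher in injected embryos, as BMP2 was. Of 7 such markers 6 were above 0 in at least 1 pool, but only 2, LUM and COL1A2, averaged 1 FPKM or more. The summed FPKM of the markers was 7.60 in the injected pool and 1.35 in the sham pool. LUM was 4.77 against 0.138 FPKM and DCN 0.653 against 0.0559 FPKM, whereas COL1A1, a defining collagen of these cells, was listed at 0 in both. Without LUM the 6 others summed to 2.83 against 1.22 FPKM, with 4 higher and THY1 lower, at 0.0532 against 0.111 FPKM. The study names LUM among its changed genes too. The part of these markers in the BMP2 difference was not tested.

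**Figure D3:**
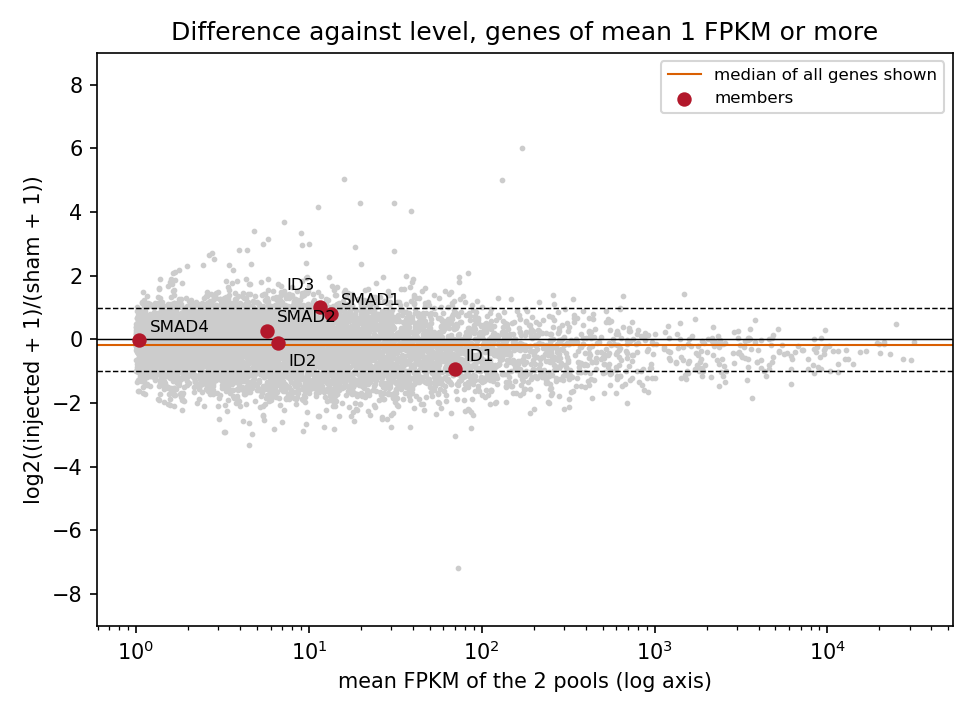
Log2 difference of injected over sham after adding 1 FPKM (vertical) against mean FPKM of the pools (horizontal, log axis) for 7984 genes averaging 1 FPKM or more (grey). Dashed lines mark 2-fold, the orange line the median of -0.17, and red points the 6 members that reach this level, of which ID3 lies at 1.02 and ID1 at -0.94.

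Relative to the median of all genes, which takes out the overall shift, ID3 stood at 1.19, SMAD1 at 0.97 and ID1 at -0.78 on the log2 scale. Over 7 alternatives of scaling, pseudocount, locus length and choice of locus, ID3 stayed above the median of all genes by 0.86 to 1.49 and SMAD1 by 0.73 to 1.14, while ID1 stayed below it by values from -0.79 to -0.51. A change of scale moves a gene and the median together, so the median, total and GAPDH settings could hardly alter these distances. The choice of locus could not move these genes either, as each had a single locus. ID1 itself turned from lower to higher, at a log2 difference of 0.73, when GAPDH was the reference. GAPDH was 242 FPKM in the injected and 783 FPKM in the sham pool, and with it the median of all genes was 1.31.

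The other genes of the pathway were taken by role from 11 lists that hold 149 symbols beside the members. Of these, 135 were found, 46 averaged 1 FPKM or more, and 24 of the 46 were higher and 22 lower after injection. Among all 7984 genes at this level, 41.7% were higher. At 2-fold after adding 1 FPKM, 2 were higher and 8 lower, 4.35% and 17.4% of the 46, close to the 4.92% and 15.7% of all genes. The split was 6 higher and 3 lower with the same total FPKM in both pools, 3 and 7 with the median of all genes set to 0, and 4 and 5 after a fit on locus length. Over all genes the shares higher and lower were 12.7% and 7.83%, 7.72% and 11.05%, and 7.52% and 8.64% under these settings. Of the 8 lower genes GDF3, STUB1 and SREBF1 were lower in all 7 alternatives, and ACVR2B, MSX2, CTDSP1, CTDSP2 and TAB1 turned only with GAPDH as the reference. A pseudocount cannot turn a direction, nor can the choice of locus for a gene with 1 locus. The median log2 difference of the 46 was 0.07.

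Ligands were mostly low or listed at 0. Of the 14 BMP-branch ligands found, none reached a mean of 1 FPKM and 7 were listed at 0 in both pools. BMP6 had the highest mean, at 0.709 FPKM in injected and 0.845 FPKM in sham embryos, and BMP7 was 0.341 against 0.403 FPKM. BMP2 made up 3.05% of the summed FPKM of these ligands in the sham pool and 24.9% in the injected pool. In the other branch, GDF3, a ligand of the NODAL type made by pluripotent cells, was 0.852 FPKM in injected and 5.94 FPKM in sham embryos, 6.98-fold lower and the largest difference among the listed genes above 1 FPKM. INHBA, whose product forms activin A, was 3.08 against 2.05 FPKM. NODAL and TGFB1 were listed at 0 in both.

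GDF3 stood beside other genes of pluripotent cells that differed between the pools. POU5F1 was 56.3 FPKM in injected and 170 FPKM in sham embryos, and NANOG was 15.1 against 23.9 FPKM, whereas DPPA3 was 41.0 against 30.6 FPKM. Of the 6 epiblast markers averaging 1 FPKM or more, 2 were higher and 4 lower, with a median log2 difference of -0.49. Over all 7984 genes at this level 41.7% were higher, at a median of -0.17. Only POU5F1 of the 6 was at least 2-fold lower, 16.7% beside 15.7% of all genes. The part of epiblast cell number in the GDF3 value was not tested.

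Type I receptors summed to 2.46 FPKM in injected and 2.52 FPKM in sham embryos. ACVR1, a BMP-branch receptor, was the highest of them, at 1.59 against 1.56 FPKM, and was 4.35 times BMPR1A in the injected and 5.79 times BMPR1A in the sham pool. Among type II receptors nearly all FPKM came from ACVR2B, which binds activins and some BMPs. It was 20.4 FPKM in injected and 50.9 FPKM in sham embryos, 2.50-fold lower, and held 96.1% and 99.4% of the summed type II FPKM. BMPR2, the dedicated BMP receptor, was 0.206 against 0.147 FPKM. Among co-receptors TGFBR3, or betaglycan, was 2.65 against 1.41 FPKM and TDGF1, the NODAL co-receptor, 1.11 against 1.59 FPKM.

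Secreted antagonists were low and went both ways. SOSTDC1, a BMP antagonist, was 1.20 FPKM in injected and 0.0992 FPKM in sham embryos, with a mean under 1 FPKM, and TWSG1 was 0.399 against 0.0919 FPKM. NOG was 0.124 FPKM in injected and 0.247 FPKM in sham embryos, and CHRD 0.242 against 0.316 FPKM. FSTL3, an activin antagonist, was 1.43 against 1.44 FPKM. The latency proteins that hold TGF-beta in the matrix were the highest of this list, with LTBP3, whose value is less certain, at 5.93 against 7.66 FPKM and LTBP1 at 4.91 against 2.24 FPKM, and these 2 went in opposite directions except with the same total FPKM or GAPDH as the reference, where LTBP3 was higher too.

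Proteins that act on SMADs or receptors held 5 of the 10 genes that were 2-fold apart. FKBP1A, which encodes FKBP12, a protein that binds type I receptors and keeps them inactive, was the highest of the list and was 177 FPKM in injected and 70.9 FPKM in sham embryos, 2.50-fold higher. The small C-terminal domain phosphatases, which can take phosphate off SMADs, were lower in the injected pool unless GAPDH was the reference. CTDSP2 was 32.7 against 76.1 FPKM and CTDSP1 1.98 against 6.09 FPKM, both more than 2-fold lower, and the third of them, CTDSPL, was 0.832 against 1.60 FPKM.

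Other regulators went both ways. TAB1, which activates the kinase TAK1, was 4.98 FPKM in injected and 11.7 FPKM in sham embryos, while MAP3K7, the gene of TAK1 itself, was 2.59 against 1.75 FPKM. STUB1, a ubiquitin ligase, was 2.46 against 9.22 FPKM, but it shares its interval with JMJD8, at 7.77 against 25.9 FPKM, and reads of these overlapping genes may have been divided between them. The SMAD phosphatase gene PPM1A was 7.21 against 6.58 FPKM. Of the 13 genes of this list above 1 FPKM, 7 were higher and 6 lower after injection, 1 and 4 of them by 2-fold, which is 7.69% and 30.8% beside 4.92% and 15.7% of all genes.

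Among nuclear partners of the SMADs, TGIF1, a corepressor of SMAD2 and SMAD3, was 13.6 FPKM in injected and 4.63 FPKM in sham embryos, 2.94-fold higher. CREBBP, a coactivator, was 7.72 against 4.68 FPKM and YY1 26.6 against 20.4 FPKM. SKI, another corepressor, was 2.21 against 2.91 FPKM and SP1 0.863 against 1.68 FPKM. Of 6 such genes above 1 FPKM, 4 were higher and 2 lower, with a median log2 difference of 0.37. Over all 7984 genes 41.7% were higher, at a median of -0.17. By 2-fold, 1 of the 6 was higher and 0 lower, 16.7% and 0% beside 4.92% and 15.7% of all genes.

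**Figure D4:**
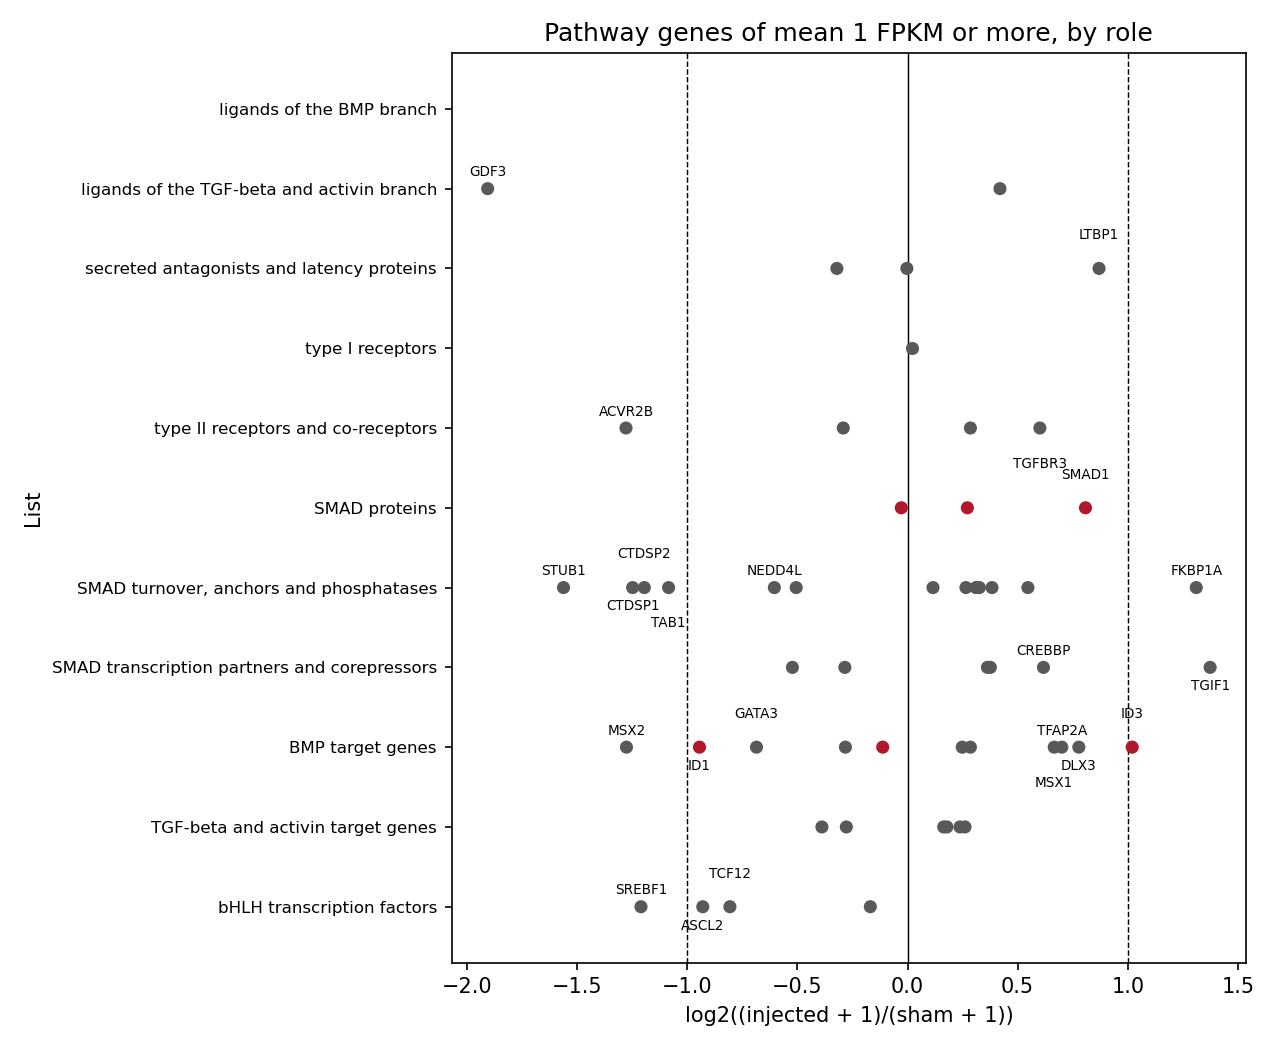
Log2 difference of injected over sham after adding 1 FPKM (horizontal) for each listed pathway gene averaging 1 FPKM or more, by list (vertical), with members in red and dashed lines at 2-fold. GDF3, ACVR2B and MSX2 lie beyond 2-fold on the left and TGIF1, FKBP1A and ID3 on the right, and no BMP-branch ligand reaches this level.

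Other BMP targets were mixed as well. Of 11 BMP targets above 1 FPKM, the ID genes included, 6 were higher and 5 lower after injection, beside 41.7% of all 7984 genes that were higher. By 2-fold, 1 was higher and 1 lower, 9.09% each beside 4.92% and 15.7% of all genes. MSX2, a homeobox gene, was 9.16 FPKM in injected and 23.6 FPKM in sham embryos, while its relative MSX1 was 8.60 against 5.05 FPKM. MSX2 was 4.68 times MSX1 in the sham pool and 1.07 times MSX1 in the injected pool, a 4.39-fold difference between the ratios. As with ID1 and ID3, this within-pool ratio does not depend on the scaling between pools.

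Several of these targets are also transcription factors of the trophectoderm. GATA2 was the highest of the list, at 379 FPKM in injected and 461 FPKM in sham embryos, and GATA3 was 11.4 against 18.9 FPKM. TFAP2A was 3.37 against 1.69 FPKM, DLX3 2.99 against 1.33 FPKM and TFAP2C 40.7 against 34.1 FPKM. The direction of GATA2 turned with the same total FPKM, the fit on locus length and GAPDH as the reference. BAMBI, a decoy receptor that BMP induces, was 1.502 against 1.05 FPKM.

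Of 6 targets of TGF-beta and activin above 1 FPKM, 4 were higher and 2 lower, 0 of them by 2-fold beside 4.92% and 15.7% of all genes, and the median log2 difference was 0.17. TGFBI was the highest, at 10.6 FPKM in injected and 14.2 FPKM in sham embryos, and CTGF was 5.32 against 4.27 FPKM.

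The bHLH genes, of the class some of whose members ID proteins bind, were all lower in the injected pool among the 4 above 1 FPKM, with a median log2 difference of -0.87, but TCF3 turned at the same total FPKM and only SREBF1 stayed lower with GAPDH as the reference. Most genes were lower, since only 41.7% of all 7984 were higher, at a median of -0.17. By 2-fold, 1 of the 4 was lower, SREBF1, which is 25% beside 15.7% of all genes. ASCL2, an imprinted trophoblast factor, was 3.82 FPKM in injected and 8.19 FPKM in sham embryos. The E protein genes TCF12 and TCF3 were 0.570 against 1.75 FPKM and 0.930 against 1.17 FPKM, and TCF4 was 0.947 against 0.914 FPKM, just under the level. SREBF1, a regulator of lipid synthesis, was 0.910 against 3.42 FPKM.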

How the data were processed

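RNA-Seq of 1 pool of siRNA-injected and 1 pool of sham-injected bovine embryos was used. Per the labels and methods, the authors mapped reads to bosTau7 with TopHat, estimated abundance with Cufflinks 2.0.2 and deposited FPKM, upper-quartile normalized and corrected for sequence bias. The annotation is not given in the sources used here. The study's Cuffdiff tests need reads and were not repeated. FPKM carries no count, so depth is unknown.

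Of 22220 loci, 615 without a symbol were left out, and loci of a symbol were summed. Each member had 1 locus. Differences are log2((injected + 1)/(sham + 1)), with a minimum mean of 1 FPKM for counts and a 2-fold rule of size. How often this rule errs in these pools was not tested. All members are named, and from each pathway list the genes 2-fold apart, the highest in level and the highest and lowest difference; further genes were added after their values were seen. Members and lists were chosen with earlier results of these data known. Alternatives were pseudocounts of 0.1 and 5, other filters and folds, median, total and GAPDH scaling, a loess on locus length (span 0.3) and the highest locus. Software was matplotlib 3.10.9, statsmodels 0.14.6, NumPy 2.4.6 and pandas 2.3.3 under Python 3.11.15. The non-injected pool was not analysed here, and no GC correction was run without a genome. Some genes of the lists are not reported here.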

Additional observations from a re-analysis of the deposited data

How the results depend on the processing

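With 1 pool in each group no pool could be left out, and the spread between embryo pools is unknown. No paired analysis was possible because each group holds a single pool. BMP2, BMP4, BMPR1A, SMAD1, SMAD2, SMAD5 and ID3 kept their direction in all 7 alternatives of scaling, pseudocount, locus length and locus choice, ID1 in 6, SMAD4 in 4 and ID2 in 3. A pseudocount cannot turn a direction, and neither can the choice of locus, since each member had 1 locus. Only the median, total and GAPDH scalings and the fit on locus length could turn a member. ID2 turned under all of these, and SMAD4 under all but the fit. The count of members 2-fold higher, 1 as reported, was 0 with a pseudocount of 5 FPKM or a 4-fold rule, 2 at 1.5-fold or the same total FPKM, and 5 with GAPDH as the reference, where 65.1% of all genes were 2-fold higher. Members lower numbered 0, and 1 at 1.5-fold. With GAPDH the median of the members above 1 FPKM was 1.63 in place of 0.12. The other pathway genes 2-fold higher, 2 as reported, numbered 8 at 1.5-fold, 0 at 4-fold, 4 with a pseudocount of 0.1 FPKM, 1 with 5 FPKM, 6 with the same total, 30 (65.2%) with GAPDH and 4 after the fit on locus length. Those lower, 8 as reported, numbered 12 at 1.5-fold, 0 at 4-fold, 10 with a pseudocount of 0.1 FPKM, 3 with a pseudocount of 5 FPKM, 3 with the same total, 0 with GAPDH, 5 after the fit on length and 5 at a mean of at least 5 FPKM. Over all genes, 12.7% were 2-fold higher and 7.83% lower with the same total, and 7.52% and 8.64% after the fit on length. These shares were 8.67% and 20.5% with a pseudocount of 0.1 FPKM and 1.49% and 7.49% with 5 FPKM. At a mean of at least 5 FPKM they were 4.96% and 19.6%. No share of all genes is given for the 1.5-fold and 4-fold rules, so those counts have no background. The ratio of ID1 to ID3 was 2.87 in the injected and 11.2 in the sham pool after adding 1 FPKM.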

Other observations

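Genes whose values were nearest to those of ID1, ID3 and SMAD1 in the 2 pools were found by the Euclidean distance between log2(FPKM + 1) values. The nearest to ID1 were IAH1, at 46.6 FPKM in the injected and 92.8 FPKM in the sham pool, and STK19, at 49.1 against 90.9 FPKM. For ID3 they were RAB6A, at 15.6 against 7.29 FPKM, and PPM1B, at 16.1 against 7.29 FPKM, and for SMAD1 they were SNX29, at 17.7 against 9.51 FPKM, and LOC100847602, at 17.6 against 9.72 FPKM. With a pair of libraries such nearness is common, since 37, 37 and 54 genes lay within a distance of 0.25 of ID1, ID3 and SMAD1.

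Within 100 kb of the members lay 13 other loci averaging 1 FPKM or more, of which 6 were higher and 7 lower after injection. Among all 7984 genes at this level, 41.7% were higher. Near ID1, which was lower itself, HM13, the gene of signal peptide peptidase, was 0.775 FPKM in injected and 4.78 FPKM in sham embryos, and LOC100851140 was 8.38 against 17.4 FPKM. Near ID3, which was higher, the ribosomal protein gene RPL11 was 10064 against 12984 FPKM. Near SMAD4, whose values were close between the pools, MEX3C was 3.05 against 1.03 FPKM and ELAC1 4.35 against 2.65 FPKM.

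Granulosa and cumulus markers, of cells that surround the oocyte and were stripped before injection, summed to 10.4 FPKM in injected and 24.7 FPKM in sham embryos over 9 genes, with AMH listed at 0 in both. HSD3B1, at 3.29 against 15.7 FPKM, carried most of this gap, and the 8 others summed to 7.09 against 8.997 FPKM. Oocyte markers summed to 9.995 against 24.7 FPKM over the 6 found, mostly from ZP3 at 9.39 against 23.7 FPKM. GDF9, the oocyte ligand of this pathway, was 0.0892 against 0.121 FPKM. The part of these cells in the differences of the pathway genes was not tested.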
